A study of Mus musculus with 9 samples.

Results

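Hepatic stellate cells, fibroblasts and the extracellular matrix they make are read here through 47 genes, taken by symbol from the 22173 gene rows of a table of mouse liver-derived libraries. The genes were chosen as markers of quiescent stellate cells (Lrat, Reln, Des), markers of contractile myofibroblasts (Acta2, Tagln), and collagens, proteoglycans, glycoproteins, cross-linking enzymes, proteases and their inhibitors. All 47 symbols were found. Levels are fragments scaled to transcript length and library total (FPKM), and 36 of the 47 had a mean of at least 1 FPKM over the 9 libraries and were tested among 9884 such genes. The 11 genes below that level, Pdgfra, Col5a1, Col6a3, Fbln1, Fbln5, Fbn1, Lamb1, Lox, Loxl1, Loxl2 and Thbs1, are described by their levels.

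The study sequenced polyA RNA from isolated cells labelled as cholangiocytes, the epithelial cells that line bile ducts. There were 3 groups of 3 libraries each: mice with a sham operation, mice with bile duct ligation (BDL), in which the common bile duct is tied off and bile backs up into the liver, and mice with BDL plus senkyunolide A, a phthalide compound known from Ligusticum and Angelica roots (BDL-SenA below). The question was how ligation alters the transcriptome and how senkyunolide A alters it in ligated mice. The labels give no strain, age, sex, dose, time after surgery or genotype, and do not state whether each library is a different animal, so the p-values reflect library-to-library spread, some of which may be technical.

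In healthy liver, stellate cells sit between hepatocytes and sinusoidal endothelium and store vitamin A as retinyl esters. After cholestatic injury, stellate cells and portal fibroblasts can turn into myofibroblasts, which carry alpha smooth muscle actin and lay down fibrillar collagens, and transforming growth factor beta is the best known signal for that change. Matrix metalloproteinases cut matrix proteins, and tissue inhibitors of metalloproteinases (TIMPs) block them.

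The estimated depth was 27.3 to 33.7 M (mega) fragments per library. The label cholangiocyte did not describe the main RNA in these libraries: Alb, the hepatocyte gene for albumin, read 21395 to 46222 FPKM, against 0.672 to 6.70 for the biliary keratin gene Krt19. Libraries correlated at 0.972 to 0.993 within sham, at 0.940 to 0.968 within BDL and at 0.921 to 0.989 within BDL-SenA on the log2(FPKM + 1) scale. Library BDL 3 stood apart for the 47 genes, being the highest of its group for 41 of them and for 46.6% of all tested genes. BDL 1 was the lowest of that group for 40 of them and for 36.1% of all tested genes. BDL-SenA 1 was the lowest of its group for 31 of them and for 44.1% of all tested genes, and BDL-SenA 2 the highest for 32 and for 31.4%. In such bulk RNA, fewer cells of a type and less RNA per cell cannot be told apart.

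Among the genes that passed the test in any comparison, 4 had a promoter sequence in the RefSeq annotation of GRCm38.p6, shown here as the 250 bases before the transcription start because these genes carry the differences described below. Timp1 lies on the plus strand with its window at chrX:20869916-20870165, Mmp14 on the plus strand at chr14:54431348-54431597, Lrat on the minus strand at chr3:82903975-82904224 and Reln on the minus strand at chr5:22344706-22344955. Each is written 5′ to 3′ on the strand of its gene, and capitals mark the GC box GGGCGG on either strand.
Timp1: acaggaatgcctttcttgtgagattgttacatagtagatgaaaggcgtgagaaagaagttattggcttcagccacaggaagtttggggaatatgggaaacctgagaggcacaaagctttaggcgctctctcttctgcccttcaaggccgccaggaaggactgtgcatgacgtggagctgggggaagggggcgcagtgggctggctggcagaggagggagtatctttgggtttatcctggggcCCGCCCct
Mmp14: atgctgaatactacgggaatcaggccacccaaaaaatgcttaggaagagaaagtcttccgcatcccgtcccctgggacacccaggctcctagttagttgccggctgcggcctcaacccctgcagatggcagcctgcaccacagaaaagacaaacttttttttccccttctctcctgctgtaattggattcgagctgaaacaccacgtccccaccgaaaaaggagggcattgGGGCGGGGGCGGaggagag
Lrat: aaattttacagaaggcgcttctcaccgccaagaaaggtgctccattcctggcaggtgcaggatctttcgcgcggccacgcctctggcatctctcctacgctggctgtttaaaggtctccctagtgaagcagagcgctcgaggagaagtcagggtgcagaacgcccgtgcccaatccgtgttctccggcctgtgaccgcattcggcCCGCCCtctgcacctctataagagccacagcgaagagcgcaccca
Reln: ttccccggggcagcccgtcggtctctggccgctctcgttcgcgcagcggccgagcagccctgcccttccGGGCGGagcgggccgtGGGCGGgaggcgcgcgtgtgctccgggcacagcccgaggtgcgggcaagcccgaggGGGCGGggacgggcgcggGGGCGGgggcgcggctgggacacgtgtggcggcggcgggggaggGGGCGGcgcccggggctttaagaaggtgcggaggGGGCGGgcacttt
The GC box was matched 1 time before Timp1, 2 times side by side before Mmp14, 1 time before Lrat and 6 times before Reln. Of 32851 promoter windows of this length, 32.74% held it, as did 22 of the 37 windows of the 32 genes that had one (59.46%). The AP-1 letters TGANTCA, searched on both strands, were in none of the 4 windows, in 6.75% of all windows and in 1 of the 37. The TATA letters TATAAA were in none of the 4, in 12.37% of all windows and in 3 of the 37. These matches describe letters in the windows and are not evidence of a bound factor. The genes themselves lie, in GENCODE M21 on GRCm38, at positions 20870166 to 20874735 of chromosome X for Timp1, 54431612 to 54445364 of chromosome 14 for Mmp14, 82892579 to 82903973 of chromosome 3 for Lrat, and 21884454 to 22344702 of chromosome 5 for Reln. Col14a1, the fifth gene that passed, lies at positions 55307750 to 55520803 of chromosome 15.

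Levels spanned a wide range across the roles. Fn1, the gene for the adhesive glycoprotein fibronectin, was the most abundant per length, at 87.4 to 253 FPKM, followed by Col18a1, the basement membrane collagen that gives rise to endostatin, at 54.6 to 208 FPKM. Both are also made by hepatocytes. Next came the small proteoglycan genes Dcn (12.5 to 127 FPKM) and Bgn (10.2 to 50.1 FPKM) and Sparc (11.8 to 66.3 FPKM), which encodes a collagen-binding matricellular protein. At the low end, Lox, the gene for the enzyme that cross-links collagen and elastin, read 0.00768 to 1.64 FPKM, or an estimated 1 to 255 fragments. Acta2, the gene for alpha smooth muscle actin, read 0.136 to 3.14 FPKM, an estimated 10 to 219 fragments, and its sequence is close to those of other actin genes, so reads shared between them are uncertain. For Tagln, at most 67.86% of the exon bases overlap exons of genes on the opposite strand, Pcsk7 among them. This is an upper bound, since bases shared by several such genes were counted for each. For Timp3, 21.28% overlap Syn3. No source used here states whether counting used the strand, so levels of these genes may include reads of their neighbours.

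**Figure D1:**
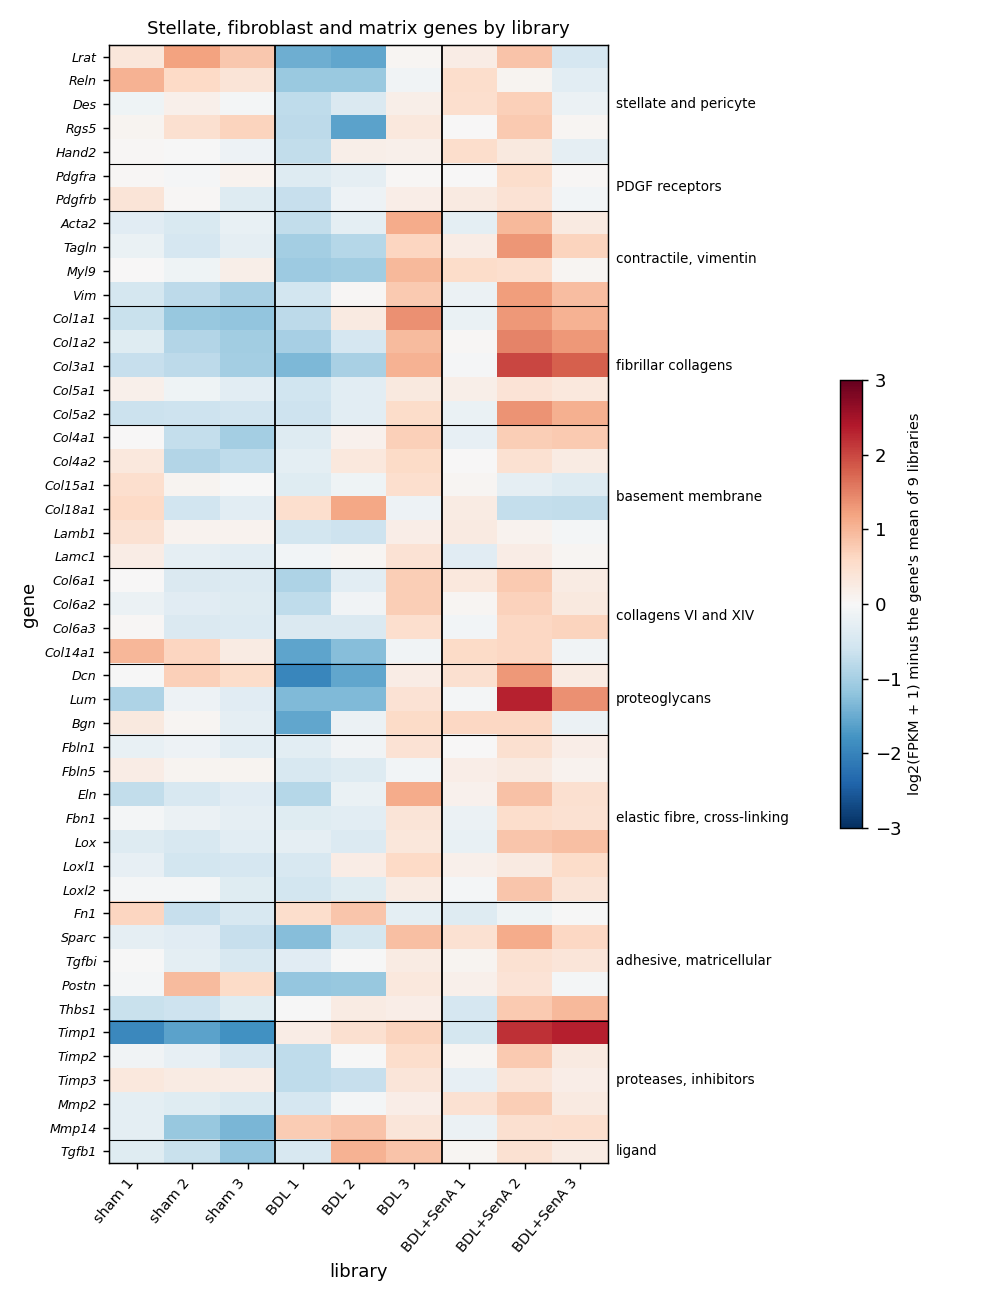
Level of each of the 47 genes (rows, grouped by role) in each of the 9 libraries (columns), as log2(FPKM + 1) minus the mean of that gene over the 9 libraries, red above and blue below. BDL 3 is redder than BDL 1 and BDL 2 in most roles, being the highest of its group for 41 of 47 genes, and BDL 1 is the lowest for 40.

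Of the stellate and pericyte genes, Lrat, Reln, Rgs5 and Des were below every sham library in BDL 1 and BDL 2, and Hand2 was not. Lrat, the gene for the acyltransferase that makes retinyl esters, read 3.72, 7.70 and 5.52 FPKM in sham 1 to 3, 0.354, 0.273 and 2.92 in BDL 1 to 3, and 3.39, 5.79 and 1.66 in BDL-SenA 1 to 3. Every sham library was above every BDL library, and BDL 3 was close to the lowest sham library, while the BDL-SenA libraries overlapped both groups. Reln, the gene for the secreted glycoprotein reelin and a stellate cell marker in liver, read 5.96, 4.14 and 3.47 FPKM in sham, 0.572, 0.573 and 2.14 in BDL, and 3.93, 2.59 and 1.72 in BDL-SenA. Sham and BDL did not overlap here either, and BDL 3 was again the highest of its group. Rgs5, a pericyte gene for a regulator of G protein signalling, read 6.96, 9.42 and 10.8 FPKM in sham, 3.33, 1.43 and 8.34 in BDL, and 6.52, 11.9 and 6.71 in BDL-SenA. Here BDL 3 lay inside the sham range. Des, the gene for the intermediate filament desmin, was low throughout, at 0.951, 1.40 and 1.06 FPKM in sham, 0.270, 0.598 and 1.44 in BDL, and 2.04, 2.52 and 0.903 in BDL-SenA. All 3 groups overlapped for Des. Hand2, a transcription factor gene of the stellate lineage, ranged from 0.583 to 2.81 FPKM, also with overlap of all groups, and 19.61% of its exon bases overlap the antisense gene Hand2os1.

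The platelet-derived growth factor receptor genes had low levels in every group. Pdgfrb, for the receptor that drives stellate cell proliferation, ranged from 0.593 to 1.69 FPKM in sham, from 0.286 to 1.36 in BDL and from 0.941 to 1.8 in BDL-SenA. Pdgfra ranged from 0.148 to 1.16 FPKM over the 9 libraries.

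No myofibroblast gene separated BDL from sham. Acta2 read 0.503, 0.383 and 0.620 FPKM in sham, 0.136, 0.548 and 3.14 in BDL, and 0.563, 2.73 and 1.30 in BDL-SenA. Both the lowest and the highest of the 9 values were BDL libraries. Tagln, for the actin-binding protein transgelin, read 3.06, 2.32 and 2.89 FPKM in sham, 1.31, 1.57 and 6.28 in BDL, and 4.45, 10.6 and 6.36 in BDL-SenA. All 3 BDL-SenA libraries were above all sham libraries, whereas BDL 1 and BDL 2 were below them and BDL 3 above. Myl9, for a regulatory myosin light chain, split in the same way within BDL, with 0.176 and 0.211 FPKM in BDL 1 and BDL 2 against 3.85 in BDL 3. Vim, the gene for vimentin, which macrophages and endothelial cells also express, read 12.6, 10.3 and 8.98 FPKM in sham, 12.3, 19.2 and 32.9 in BDL, and 16.3, 45.6 and 36.1 in BDL-SenA. Its BDL-SenA libraries were all above sham, and BDL 1 overlapped sham.

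**Figure D2:**
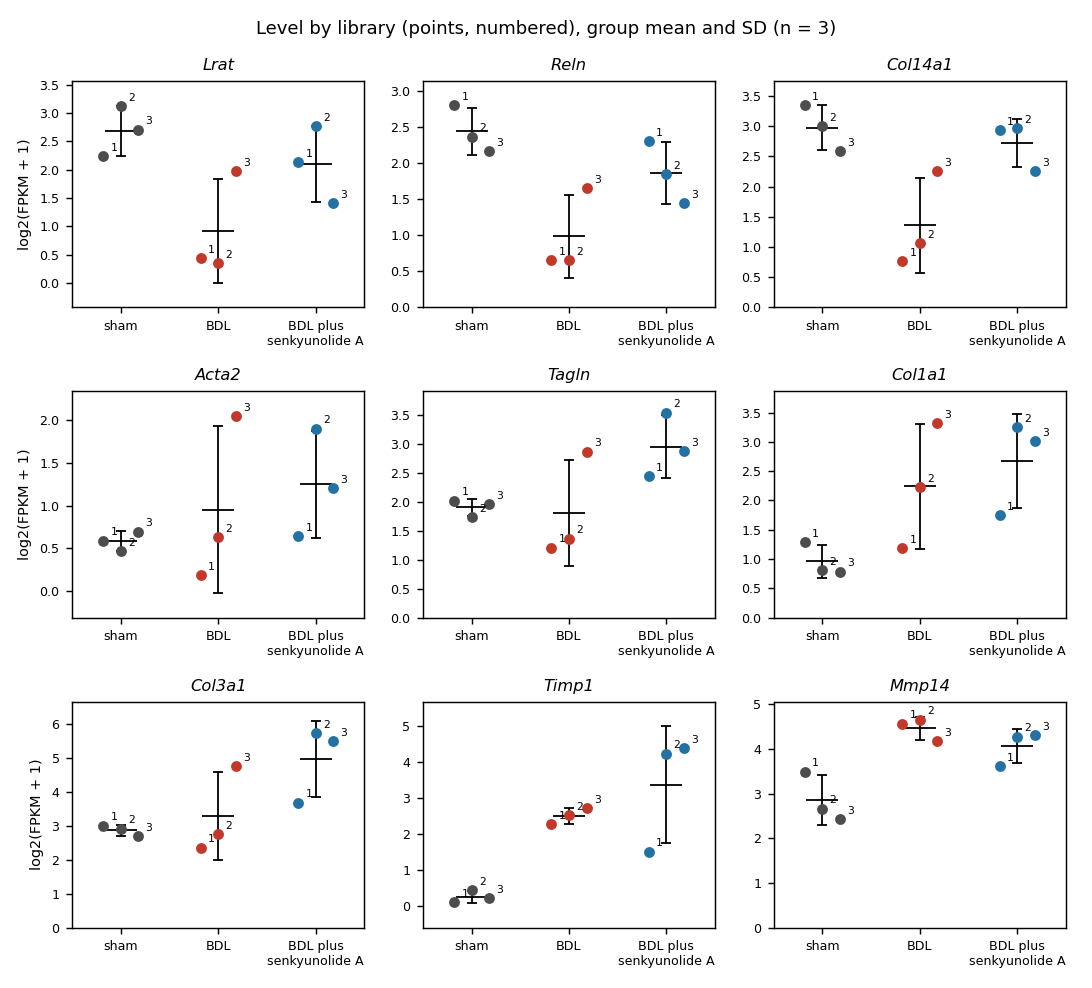
Level as log2(FPKM + 1) of 9 genes in each library, with points numbered by library, and the group mean and SD (n = 3). Lrat, Reln and Col14a1 show BDL below sham without overlap, Timp1 and Mmp14 show BDL above sham without overlap, and for Acta2, Tagln, Col1a1 and Col3a1 the BDL points spread from below or within sham to far above it.

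Fibrillar collagen genes, which encode the main scar proteins, were spread widely within both ligated groups. Col1a1 read 1.44, 0.756 and 0.722 FPKM in sham, 1.27, 3.68 and 8.99 in BDL, and 2.37, 8.51 and 7.05 in BDL-SenA. Col1a2, for the partner chain of the same protein, read 3.16, 1.92 and 1.61 FPKM in sham, 1.72, 2.80 and 9.48 in BDL, and 4.56, 14.2 and 12.2 in BDL-SenA. For both genes the 3 BDL-SenA libraries were above the 3 sham libraries, and only BDL 3 and, for Col1a1, BDL 2 were clearly above sham. Col3a1, for type III collagen, read 7.03, 6.52 and 5.48 FPKM in sham, 4.10, 5.69 and 26.0 in BDL, and 11.8, 51.6 and 43.9 in BDL-SenA. Col5a2, for a type V chain, read 0.347, 0.360 and 0.404 FPKM in sham, 0.362, 0.686 and 2.08 in BDL, and 0.812, 4.30 and 3.39 in BDL-SenA. In both, sham was tight, BDL 3 was the highest ligated library without the compound, and BDL-SenA 1 was the lowest of its group.

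Among the other collagens, Col14a1 showed the same pattern as Lrat and Reln in BDL. It encodes a collagen that associates with fibril surfaces and read 9.19, 6.99 and 5.02 FPKM in sham, 0.700, 1.09 and 3.77 in BDL, and 6.65, 6.84 and 3.77 in BDL-SenA. The sham and BDL libraries did not overlap, and BDL-SenA 3 and BDL 3 read nearly the same, with BDL-SenA just above. The type VI chains Col6a1 and Col6a2, which build beaded microfibrils, ranged from 0.782 to 4.86 FPKM and from 0.157 to 2.27 FPKM, each lowest in BDL 1. Of the basement membrane genes, Col4a1 read 7.51, 4.10 and 3.13 FPKM in sham, 5.51, 8.23 and 12.9 in BDL, and 6.15, 13.0 and 13.5 in BDL-SenA. Sham 1 lay inside the BDL range and above BDL-SenA 1. Col18a1 was 1 of 3 members, with Fn1 and Mmp14, that were lowest of their group in BDL 3, with 130, 208 and 82.4 FPKM in BDL and 108, 55.4 and 54.6 in BDL-SenA.

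Proteoglycan and matricellular genes gave some of the highest levels. Dcn, for the collagen-binding proteoglycan decorin, read 51.2, 84.5 and 74.9 FPKM in sham, 12.5, 16.7 and 59.5 in BDL, and 72.1, 127 and 61.1 in BDL-SenA. BDL 3 lay within the sham range, and every BDL-SenA library was above every BDL library. Lum, for the related proteoglycan lumican, read 3.74, 7.05 and 6.14 FPKM in sham, 2.58, 2.60 and 11.1 in BDL, and 7.62, 43.1 and 22.1 in BDL-SenA. Each BDL-SenA library was above each sham library. Postn, for the matricellular protein periostin, read 1.78, 4.58 and 3.28 FPKM in sham, 0.287, 0.310 and 2.59 in BDL, and 2.21, 2.82 and 1.78 in BDL-SenA. BDL 1 and BDL 2 were far below the other 7 libraries for Postn. Sparc read 18.3 to 25.0 FPKM in sham, 11.8, 20.4 and 57.2 in BDL, and 41.6, 66.3 and 47.1 in BDL-SenA.

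Genes of matrix turnover held both tested members that were above sham in all 3 BDL libraries. Timp1, the gene for an inhibitor of metalloproteinases, read 0.0731, 0.356 and 0.165 FPKM in sham, 3.84, 4.77 and 5.53 in BDL, and 1.84, 17.8 and 19.8 in BDL-SenA. The sham values correspond to an estimated 2, 9 and 4 fragments, and all 6 ligated libraries were above them, with BDL-SenA 1 below every BDL library and the other two above. Mmp14, for a membrane-bound collagenase that also activates pro-MMP2, read 10.3, 5.35 and 4.36 FPKM in sham, 22.7, 24.2 and 17.0 in BDL, and 11.3, 18.4 and 18.8 in BDL-SenA. Again sham lay below all 6 ligated libraries. Mmp2, for the gelatinase, read 0.727, 0.666 and 0.560 FPKM in sham, 0.490, 1.05 and 1.45 in BDL, and 1.93, 2.54 and 1.56 in BDL-SenA. The BDL-SenA libraries were above all others for this gene. Tgfb1, for the profibrotic cytokine, read 5.48, 4.22 and 2.72 FPKM in sham, 4.93, 16.2 and 13.9 in BDL, and 7.57, 10.4 and 8.83 in BDL-SenA. Only BDL 1 overlapped sham for Tgfb1.

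The comparison of BDL with sham asked which of these genes responded to ligation. Timp1 and Mmp14 rose, and Lrat, Reln and Col14a1 fell, each without overlap between the groups. In limma, Timp1 rose by 2.25 ± 0.59 (SE) on the log2(FPKM + 1) scale (adjusted p = 0.0347) and Mmp14 rose by 1.60 ± 0.30 (adjusted p = 0.0122). Lrat fell by 1.77 ± 0.45 (adjusted p = 0.0316), Reln fell by 1.46 ± 0.31 (adjusted p = 0.0184) and Col14a1 fell by 1.62 ± 0.37 (adjusted p = 0.0220). This scale understates the change of low genes such as Timp1. In all, 5 of 36 tested genes were called, against 11% of all tested genes. The 2 higher calls compare with 8.12% of all genes and the 3 lower calls with 2.84%, so the total is near the background. Without the adjustment, 10 of the 36 had a p under 0.05, against 28.6% of all genes: 4 higher, against 21.4%, and 6 lower, against 7.2%. The same 5 were the genes without overlap between the groups, 2 higher against 21.5% of all genes and 3 lower against 8.96%.

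By role, 2 of 5 stellate and pericyte genes fell and 0 rose, and all 5 had a negative log2 difference, with a median of -1.11. No contractile gene passed: the log2 difference was 0.37 ± 0.43 for Acta2 (limma adjusted p = 0.617), -0.09 ± 0.41 for Tagln (0.908), -0.40 ± 0.44 for Myl9 (0.600) and 0.85 ± 0.40 for Vim (0.182). None of the 4 tested fibrillar collagen genes passed, with differences from 0.41 for Col3a1 to 1.28 ± 0.50 for Col1a1 (adjusted p = 0.118). None of the 3 proteoglycan genes passed, Dcn coming nearest at -1.52 ± 0.49 (adjusted p = 0.0714). Tgfb1 differed by 1.2 ± 0.37 (adjusted p = 0.0595), Postn by -1.15 ± 0.38 (0.0767) and Rgs5 by -1.11 ± 0.42 (0.109), all short of the threshold. Over the 36 genes the median log2 difference was 0.22, against 0.15 over all tested genes, and 21 were above 0, against 63.3% of all.

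The 5 log2 differences kept their direction with any 1 library left out, at 2.15 to 2.36 for Timp1, 1.38 to 1.92 for Mmp14, -2.30 to -1.48 for Lrat, -1.79 to -1.28 for Reln and -2.06 to -1.32 for Col14a1. Their calls did change. None of the 5 passed in limma without sham 2, sham 3 or BDL 2 (adjusted p from 0.0572 for Reln to 0.147 for Lrat). Without BDL 1, Lrat, Reln, Col14a1 and Timp1 did not pass (adjusted p 0.0529 to 0.0879), while Mmp14 did, with Col1a1 and Tgfb1. Without sham 1, Col14a1 (0.0525) and Timp1 (0.0724) did not pass. Without BDL 3, 8 genes were lower (Lrat, Reln, Col14a1, Dcn, Postn, Rgs5, Myl9 and Timp3), and Timp1 did not pass (0.0654). The median log2 difference of the members turned to -0.28 there, against 0.11 over all tested genes. Without BDL-SenA 1, which enters through the shared estimate of spread, Mmp14, Timp1, Tgfb1 and Thbs1 were higher. The share of all tested genes called with a library left out is not given, so these counts have no background beside them.

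**Figure D3:**
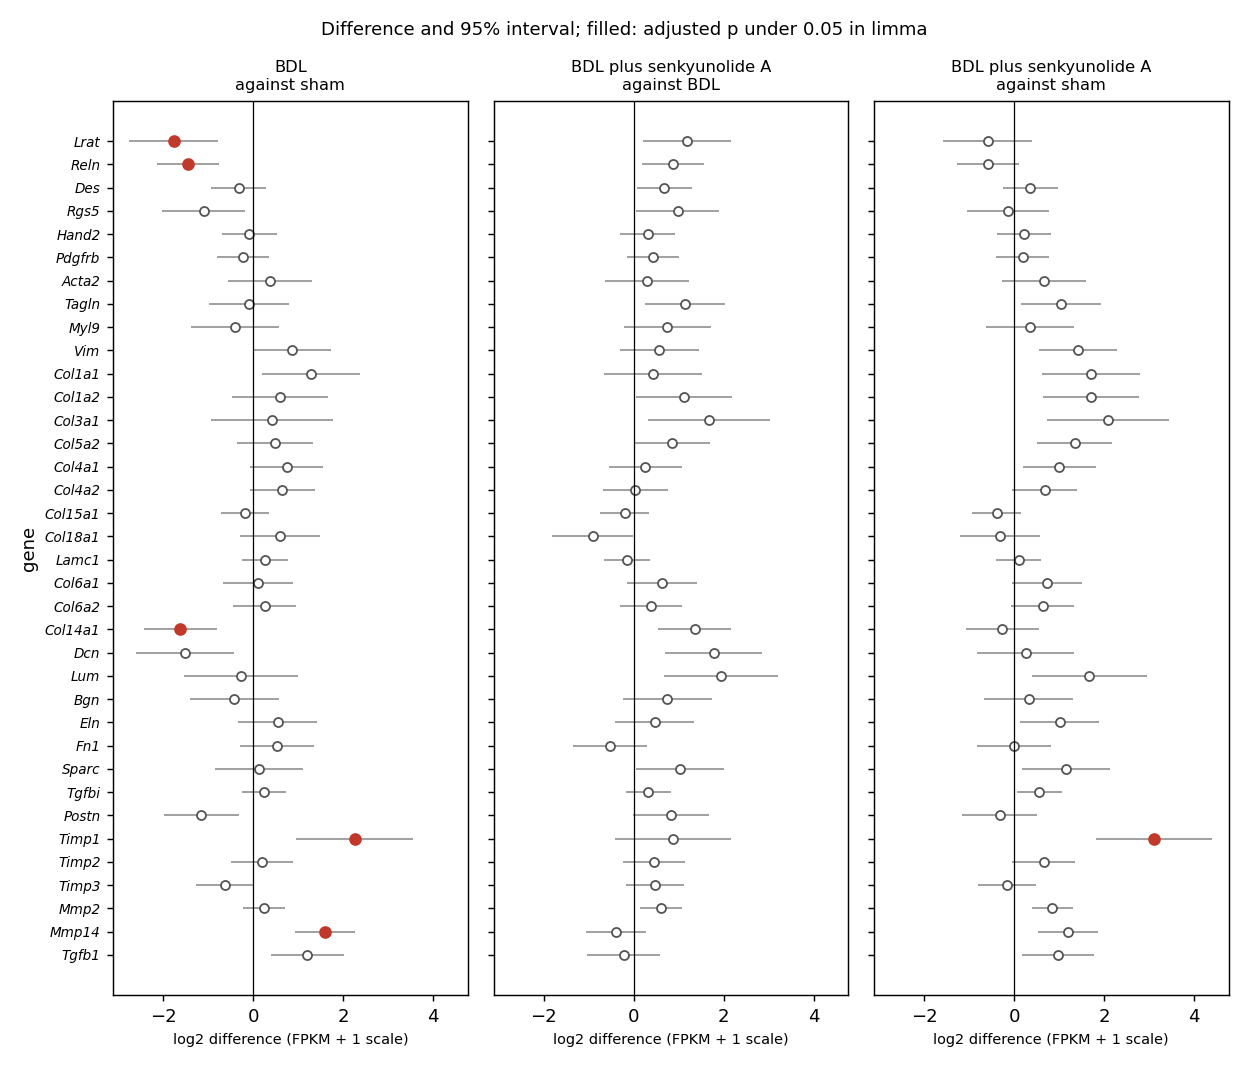
Log2 difference on the FPKM + 1 scale (horizontal axis) with its 95% interval from limma for the 36 tested genes (rows) in the 3 comparisons. Filled points have an adjusted p under 0.05: 5 in BDL against sham, 0 in BDL-SenA against BDL and 1 in BDL-SenA against sham.

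The comparison of BDL-SenA with BDL asked what the compound changed in ligated mice, and no gene of the 36 passed. Most point estimates were above 0, in 30 of 36 genes against 38.1% of all tested genes, with a median of 0.59 against -0.12. Limma called 1 of 9884 genes in all, or 0.0101%. Before adjustment, 13 genes were higher at a p under 0.05, against 3.34% of all, and 1 lower gene, Col18a1, against 8.92% of all. Groups did not overlap for Col14a1, Dcn and Mmp2, all higher, against 3.25% of all genes.

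The log2 differences of BDL-SenA from BDL were 1.36 ± 0.37 for Col14a1, 1.78 ± 0.49 for Dcn, 1.94 ± 0.58 for Lum and 0.61 ± 0.21 for Mmp2, each with a limma adjusted p of 0.407. The stellate and pericyte genes had values of 1.18 ± 0.45 for Lrat, 0.88 ± 0.31 for Reln, 0.68 ± 0.28 for Des and 0.98 ± 0.42 for Rgs5, again each at 0.407. Tagln differed by 1.15 ± 0.41 and Col3a1 by 1.68 ± 0.61, also at 0.407. For Acta2 the value was 0.29 ± 0.43 (adjusted p = 0.741), with an interval from -0.64 to 1.23. The genes that rose with ligation had intervals that span 0: 0.87 for Timp1, from -0.42 to 2.16, and -0.40 for Mmp14, from -1.06 to 0.27.

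BDL 3 and BDL-SenA 1 both bear on this comparison. Without BDL 3, Col14a1, Dcn, Tagln, Myl9 and Sparc passed in limma as higher in BDL-SenA, Dcn with an adjusted p of 0.0163. Without BDL-SenA 1, Lum (adjusted p = 0.0476) and Timp1 passed. With both left out, a setting chosen after the data were seen that leaves 2 libraries in each ligated group, 21 genes were higher and 1, Col18a1, was lower. That setting removes BDL 3, the highest of its group for 41 of the 47 genes, and BDL-SenA 1, the lowest of its group for 31. Where a gene has both traits, the difference is widened by construction. Col18a1 had the reverse order, with BDL 3 lowest and BDL-SenA 1 highest, so its negative difference is widened too. For Reln, BDL-SenA 1 was instead the highest of its group. The median log2 difference of the members was 1.10 in that setting, against -0.07 over all tested genes. The share of all tested genes called in these settings is not given.

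The comparison of BDL-SenA with sham set ligated mice given the compound against mice with open bile ducts, and Timp1 rose by 3.12 ± 0.59 (limma adjusted p = 0.0351). It was the only one of 36 called, against 2.17% of all tested genes, and 1.76% of all genes were called higher. All 4 tested fibrillar collagen genes were above sham in every BDL-SenA library but did not pass. Their log2 differences were 1.71 ± 0.50 for Col1a1 (adjusted p = 0.0758), 1.71 ± 0.49 for Col1a2 (0.0727), 2.09 ± 0.61 for Col3a1 (0.0784) and 1.34 ± 0.38 for Col5a2 (0.0729). Mmp2 at 0.85 ± 0.21 (0.0551), Mmp14 at 1.21 ± 0.30 (0.0576), Vim at 1.43 ± 0.40 (0.0677), Lum at 1.67 ± 0.58 (0.118) and Col4a1 at 1.0 ± 0.37 (0.137) were also short of the threshold.

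In that comparison the groups did not overlap for 17 of 36 genes, all higher, against 17.5% of all genes higher and 12.1% lower. Before adjustment, 15 genes had a p under 0.05, against 23.2% of all genes, and all 15 were higher, against 15.6% of all higher and 7.64% lower. The median log2 difference was 0.65, against 0.04 over all tested genes, and 28 of 36 were above 0, against 53.6% of all. Lrat at -0.59 ± 0.45 (adjusted p = 0.474), Reln at -0.58 ± 0.31 (0.3) and Col14a1 at -0.26 ± 0.37 (0.731) did not pass and overlapped sham. Without BDL-SenA 1, 11 genes passed as higher, among them Col1a1, Col1a2, Col3a1, Col5a2, Lum, Mmp2, Mmp14, Vim and Timp1. Without BDL 3, 6 genes passed, Col1a1, Col1a2, Col3a1, Mmp2, Sparc and Timp1. The share of all tested genes called in these settings is not given, so the counts of 11 and 6 have no background beside them. The median log2 difference of the members was 0.79 and 0.61 there, against 0.03 over all tested genes in both. Timp1 did not pass without any 1 sham library, BDL-SenA 2 or BDL-SenA 3 (adjusted p 0.116 to 0.164), where its log2 difference was 2.61 to 3.21. The 3 comparisons share libraries in pairs, so their values for a gene are not independent.

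Libraries of the same group differed widely in the summed level of several roles. The summed level of the 5 fibrillar collagen genes was 8.78 to 13.1 FPKM in sham, 7.73, 13.4 and 47.9 in BDL 1 to 3, and 20.7, 80.1 and 67.9 in BDL-SenA 1 to 3. The 4 contractile genes with Vim summed to 14.3 to 17.6 FPKM in sham, 13.9, 21.5 and 46.2 in BDL, and 23.9, 61.4 and 45.3 in BDL-SenA. BDL 3 and the BDL-SenA libraries 2 and 3 were highest in both sums. The 5 stellate and pericyte genes summed to 19.3, 24.3 and 22.2 FPKM in sham, 5.11, 4.89 and 16.8 in BDL, and 18.7, 25.0 and 12.2 in BDL-SenA. Here BDL 3 was nearer to sham than to its own group.

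Markers of some other cell types moved with these sums and those of others did not, and their part in the results was not tested. The 16 endothelial markers summed to 164 to 202 FPKM in sham, 80.4, 121 and 249 in BDL, and 204 to 317 in BDL-SenA, with BDL 3 the highest of its group for 13 of 16. None of the endothelial markers was at 0. The 7 mesothelial markers, genes of the cells that cover the liver surface, summed to 3.05 to 4.50 FPKM in sham, 3.67, 6.60 and 18.9 in BDL, and 5.49, 17.0 and 20.2 in BDL-SenA. BDL 3 was the highest of its group for 7 of 7 of them and BDL-SenA 1 the lowest for 7 of 7, and Wt1 was at 0 in some libraries.

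The 14 macrophage markers summed to 325 to 448 FPKM in sham, 921, 1493 and 1210 in BDL, and 618, 2169 and 2649 in BDL-SenA, with BDL-SenA 1 the lowest for 14 of 14 and none at 0. The 7 neutrophil markers summed to at most 6.5 FPKM in sham, against 34.9 to 65.7 for BDL and 17.8 to 106 for BDL-SenA, Ly6g and Retnlg being at 0 in some libraries. The 12 biliary markers summed to 24.3 to 39.2 FPKM in sham, 130, 88.1 and 588 in BDL, and 56.9, 387 and 416 in BDL-SenA, with Cftr and Sctr among those at 0 in some libraries. Most of that sum was Spp1, a gene that macrophages also express, at 110, 64.5 and 551 FPKM in BDL and 42.6, 365 and 383 in BDL-SenA. The other 11 biliary markers summed to 14.6, 7.20 and 7.06 FPKM in sham, 20.6, 23.6 and 37.1 in BDL, and 14.3, 21.6 and 32.8 in BDL-SenA. The 12 portal fibroblast markers summed to 11.8 to 13.0 FPKM in sham, 25.7, 29.1 and 37.9 in BDL, and 21.2, 38.1 and 30.5 in BDL-SenA, with Gli1 at 0 in some libraries. In BDL 1 and BDL 2 most of that sum was Smoc2, at 11.8 and 10.1 FPKM, and Entpd2, at 8.11 and 11.2. The portal fibroblast sum therefore does not show that the other markers of the list rose in those libraries. The 11 hepatocyte markers summed to 53699 to 74935 FPKM over all libraries, with overlap of all 3 groups. Smooth muscle markers stayed low, 8 genes summing to 6.16 to 14.6 FPKM, and the defining genes Myh11, Cnn1, Actg2 and Lmod1 were each at 0 in some libraries.

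**Figure D4:**
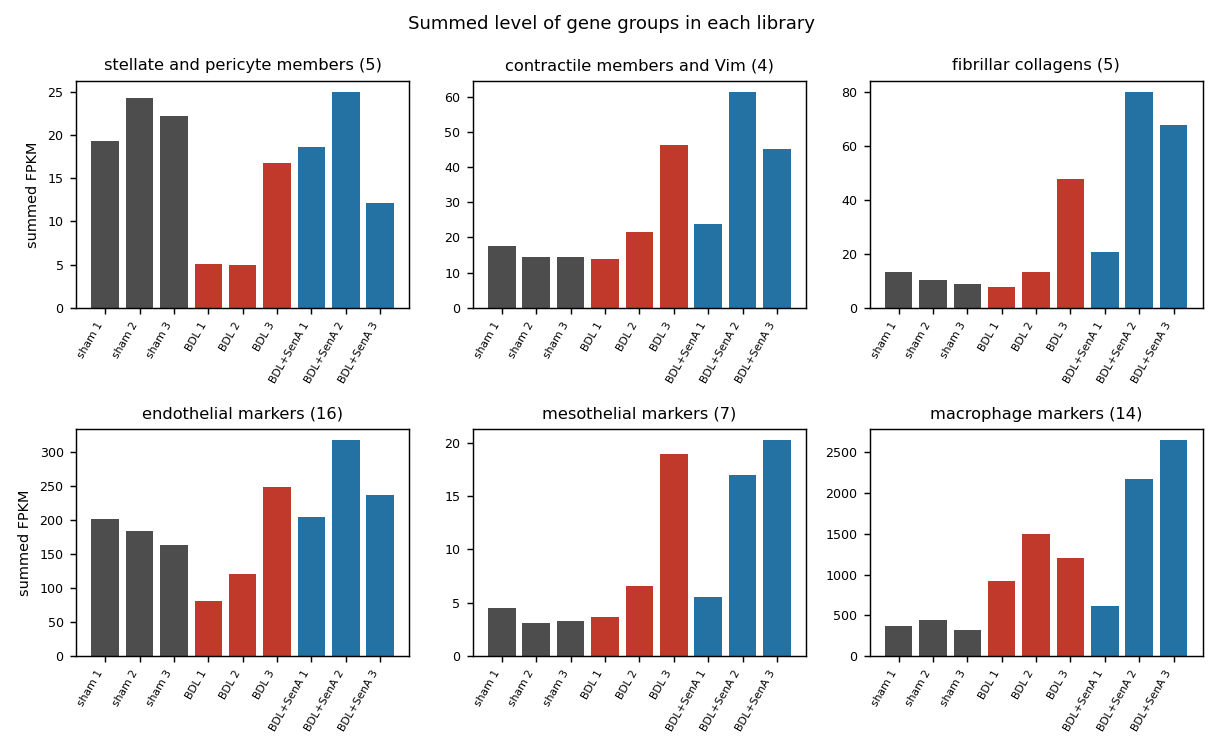
Summed FPKM in each of the 9 libraries for 3 roles of the genes described (top row) and 3 marker lists (bottom row), bars starting at 0. BDL 3 is the highest BDL library in the stellate, contractile, collagen, endothelial and mesothelial panels, and BDL-SenA 1 is low in the collagen, mesothelial and macrophage panels.

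Further stellate cell markers, genes outside the 47, moved in both directions. Of 10 tested markers of a list of 15, 3 fell and 1 rose in BDL against sham, where 2.84% of all tested genes were called lower and 8.12% higher. The median log2 difference of the 10 was -0.77, against 0.15 over all tested genes. Colec10 and Colec11, which encode soluble collectins made by stellate cells, fell by 2.46 ± 0.45 (limma adjusted p = 0.00996) and 1.96 ± 0.43 (0.0194), and Vipr1, a neuropeptide receptor gene, fell by 2.01 ± 0.47 (0.0240). Colec10 read 7.98, 10.4 and 8.98 FPKM in sham, 0.259, 0.499 and 2.25 in BDL, and 6.38, 8.05 and 1.66 in BDL-SenA. As with Lrat, BDL 3 was the highest of its group and still below sham. The astrocyte and stellate gene Gfap was near 0 throughout.

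Portal fibroblast markers gave 2 rises of 7 tested and 0 falls in BDL against sham, against 8.12% of all tested genes higher and 2.84% lower, with a median log2 difference of 0.48. Smoc2, for a matricellular protein, rose by 2.25 ± 0.34 (limma adjusted p = 0.00577), from 1.98, 1.97 and 1.18 FPKM in sham to 11.8, 10.1 and 13.6 in BDL. Entpd2, for an ectonucleotidase of portal fibroblasts, rose by 1.90 ± 0.30 (adjusted p = 0.00623), from 1.92, 1.03 and 0.926 FPKM to 8.11, 11.2 and 4.33. The lineage gene Gli1 was at or near 0 in every library. Smoc2 was higher than sham in BDL-SenA as well, by 1.86 ± 0.34 (adjusted p = 0.0314).

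Genes around transforming growth factor beta gave 5 rises and 0 falls of 20 tested in BDL against sham, against 8.12% of all tested genes higher and 2.84% lower, with a median log2 difference of 0.34. Of the 5, 4 are described. Tgfbr2, for the ligand-binding receptor, rose by 1.23 ± 0.27 (limma adjusted p = 0.0190), and Itgb5, for an integrin chain that can activate the latent cytokine, rose by 0.90 ± 0.24 (0.0357). The inhibitory Smad gene Smad6 and the corepressor gene Tgif1 rose by 0.83 ± 0.24 (0.0447) and 1.12 ± 0.25 (0.0210). Tgfbr2 read 9.41, 4.93 and 5.27 FPKM in sham, 17.0, 18.9 and 13.0 in BDL, and 7.70, 12.2 and 11.0 in BDL-SenA. BDL lay above sham without overlap for it, and BDL-SenA 1 lay inside the sham range.

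Of stellate activators and their receptors, 2 of 10 rose in BDL against sham, with 8.12% of all tested genes called higher and 2.84% lower. Pdgfa, for a platelet-derived growth factor chain, rose by 1.32 ± 0.28 (limma adjusted p = 0.0184), and Lgals3, for galectin-3, which macrophages also make, rose by 2.53 ± 0.59 (0.0239). Lgals3 was also higher in BDL-SenA than in sham, by 3.06 ± 0.59 (0.0360). Among 13 other tested matrix genes, Nid1, for the basement membrane linker nidogen, rose by 2.49 ± 0.52 (0.0157) and Col27a1, for a fibrillar collagen of cartilage, fell by 1.5 ± 0.20 (0.00355). Nid1 read 4.45, 2.69 and 2.62 FPKM in sham, 24.6, 19.6 and 23.5 in BDL, and 4.21, 20.9 and 29.8 in BDL-SenA, where library 1 lay within the sham range. Col27a1 was also lower than sham in BDL-SenA, at -1.11 ± 0.20 (0.0314).

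Of 14 tested genes for collagen processing, only Colgalt1, for a collagen galactosyltransferase, rose in BDL against sham, by 0.92 ± 0.24 (limma adjusted p = 0.0347). Over all tested genes, 8.12% were called higher there and 2.84% lower. Of 8 tested proteases and inhibitors outside the 47 genes, Mmp7, a matrilysin of biliary epithelium, rose by 1.67 ± 0.41 (0.0276) and Mmp15, for a membrane-bound metalloproteinase, rose by 1.23 ± 0.31 (0.0309). Of the other cell type lists in BDL against sham, 8 of 14 macrophage, 3 of 4 neutrophil and 3 of 7 biliary markers rose. These counts stand beside the same 8.12% of all tested genes. Of 3 tested mesothelial markers 1 rose, Krt19, which is also a biliary marker, and 0 of 15 endothelial and 0 of 3 smooth muscle markers passed, while 1 hepatocyte marker of 11 rose (Trf) and 1 fell (Ttr). No list held a gene that passed in BDL-SenA against BDL.

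Ratios of genes within a library, chosen after their values were seen, compare members without the scaling between libraries, and are given with no test. The ratio of Col1a1 to Col1a2 was 0.456, 0.393 and 0.450 in sham, 0.741, 1.31 and 0.948 in BDL, and 0.519, 0.600 and 0.577 in BDL-SenA. The 3 groups did not overlap, with BDL highest. The ratio of Dcn to Lum was 13.7, 12 and 12.2 in sham, 4.85, 6.41 and 5.36 in BDL, and 9.46, 2.95 and 2.76 in BDL-SenA. BDL was tight here although its libraries differed several-fold in both genes. The ratio of Reln to Col3a1 was 0.848, 0.634 and 0.634 in sham, 0.140, 0.101 and 0.0822 in BDL, and 0.333, 0.0502 and 0.0392 in BDL-SenA. BDL 3 lay close to BDL 1 and BDL 2 in this ratio, below sham. The ratio of Lrat to Col1a1 was 2.58, 10.2 and 7.64 in sham, 0.278, 0.0741 and 0.325 in BDL, and 1.44, 0.680 and 0.235 in BDL-SenA. All 3 BDL libraries were below sham in it, BDL 2 well below the other two. Of the 6 ratios computed, Timp1 to Timp3 was at most 0.0576 in sham and 0.815 to 1.72 in BDL, without overlap. The ratio of Col4a1 to Col4a2 did overlap, at 1.25, 1.98 and 1.35 in sham, 1.52, 1.38 and 1.74 in BDL, and 1.31, 1.94 and 2.35 in BDL-SenA.

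**Figure D5:**
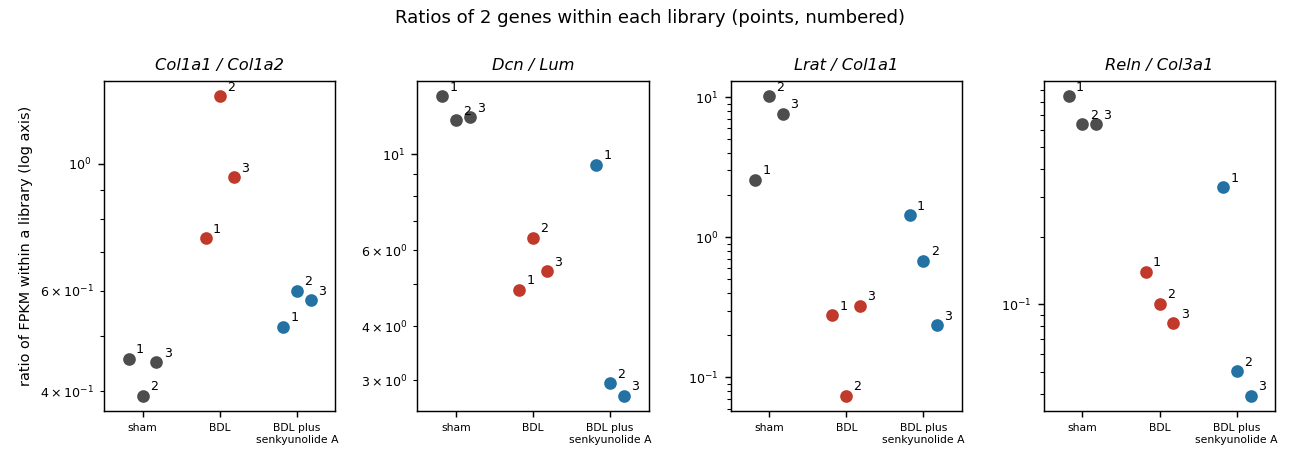
Ratio of the FPKM of a pair of genes within each library, on a log axis, with points numbered by library. Sham lies apart from BDL in the 4 panels drawn, unlike the ratio of Col4a1 to Col4a2, which is not drawn, and BDL 3 lies with BDL 1 and BDL 2 for Reln to Col3a1, at 0.0822 to 0.140.

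The genes below the level for testing were spread in the ligated groups as well. Lox read 0.0710, 0.00768 and 0.120 FPKM in sham, 0.162, 0.0614 and 0.772 in BDL, and 0.193, 1.5 and 1.64 in BDL-SenA. Thbs1, for the matricellular protein thrombospondin 1, read 0.144, 0.174 and 0.407 FPKM in sham, 0.790, 1.14 and 1.08 in BDL, and 0.278, 2.12 and 2.54 in BDL-SenA. BDL was above sham without overlap for Thbs1, and BDL-SenA 1 lay inside the sham range. Fbln5, for an elastic fibre protein, was lower in each BDL library (0.201, 0.280 and 0.576 FPKM) than in sham (0.753 to 0.942). When every gene with a mean of at least 0.1 FPKM was tested, 12999 in all, the 47 genes were all tested and the calls were the same 5, 0 and 1, Fbln5 coming to -0.44 ± 0.14 in BDL against sham (limma adjusted p = 0.0679).

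The remaining genes showed no call in any comparison or were not tested. Timp2 (2.21 to 8.41 FPKM) and Timp3 (2.60 to 6.88 FPKM), which encode further inhibitors of metalloproteinases, overlapped between sham and BDL, as did Tgfbi (10.02 to 20.1 FPKM), for a matrix protein that transforming growth factor beta induces. Col4a2, for the partner chain of Col4a1, ranged from 2.07 to 7.46 FPKM, Lamc1, for a laminin chain, from 1.86 to 3.90, and Col15a1, for a collagen next to basement membranes, from 0.613 to 1.98. Elastin itself, Eln, ranged from 0.276 to 3.97 FPKM and was the highest in BDL 3. Of the genes not tested, Lamb1 ranged from 0.133 to 1.41 FPKM, Col5a1 from 0.282 to 1.56, Col6a3 from 0.347 to 1.92, Fbn1, for the microfibril protein fibrillin, from 0.187 to 1.17, and Fbln1 from 0.0569 to 0.817. The cross-linking enzyme genes Loxl1 and Loxl2 ranged from 0.231 to 1.69 FPKM and from 0.121 to 1.92 FPKM.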

How the data were processed

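PolyA RNA of 9 mouse libraries in 3 groups of 3 was measured, grouped by the treatment in the sample labels. The authors deposited 1 table of FPKM (fragments scaled to transcript length and library total), per the file headers. HISAT2 2.0.5, featureCounts 1.5.0-p3, fastp, CASAVA 1.8 and DESeq2 1.20.0 are named in the submitters' processing notes, with the build GRCm38 (mm10). No source used here gives their settings, the annotation or whether strand was used. The most abundant genes lower the FPKM of all others.

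Values were taken as log2(FPKM + 1), and 9884 genes with a mean of at least 1 FPKM were fitted with limma 3.58.1 in R 4.3.3 over all 3 groups, with a variance trend, two-sided tests and Benjamini-Hochberg adjustment at 0.05. The fit was tested on simulated data. Depth and fragments were estimated from the steps of low FPKM values, so no counting interval is given. Positions are from GENCODE M21 and promoters from RefSeq (GRCm38.p6). The genes and lists were chosen with earlier results of these data known. Values of every library are given for Lrat, Reln, Des, Acta2 and Tagln, for genes called in any comparison, and otherwise for the 10 with the smallest p in each. Of listed genes outside the 47, those called, at most 8 per list, are named, except a few that are not reported here. Genes beyond this rule (Myl9, Sparc, Col18a1, Thbs1, Lox and Fbln5) and the ratios were chosen after their values were seen. Alternatives were another pseudocount, filter, scaling, group set, library weights and leaving out each library.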

Additional observations from a re-analysis of the deposited data

How the results depend on the processing

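Counts of called genes among the members tested under each setting are given as higher and lower. The share of all tested genes called under each setting is not given beside them. The counts therefore do not show whether calls among the members changed more than calls among other genes. In BDL against sham (2 and 3), no filter gave 1 and 0, quantile normalization 1 higher, library weights 8 and 7, and leaving out 1 library 0 to 4 higher and 0 to 8 lower. In BDL-SenA against BDL (0 and 0), library weights gave 22 and 1, and leaving out 1 library 0 to 5 higher. In BDL-SenA against sham (1 and 0), a pseudocount of 0.1 gave 2 higher, no filter, quantile normalization or fitting only the 2 groups compared 0, library weights 21 and 1, and leaving out 1 library 0 to 11 higher. Without both BDL 3 and BDL-SenA 1, chosen after seeing the data, the lower calls were 8 in BDL against sham. Mmp14 and Timp1 were among the higher calls there (limma adjusted p = 0.00162 and 4.96e-05). In that setting the calls were 21 and 1, and 16 and 1, in the other comparisons. The cause of these differences was not tested, except that leaving out a library also leaves fewer samples. Tagln in BDL against sham turned from -0.09 to 0.21 without BDL 1 and to 0.13 without BDL 2, with a range over left-out libraries of -0.62 to 0.21. Acta2 in BDL-SenA against BDL turned from 0.29 to -0.0913 without BDL 1, with a range of -0.0913 to 0.60 where it was tested. Without BDL 3 or BDL-SenA 2 its mean fell below 1 FPKM, so it was not tested there. The median of all genes in BDL against sham moved from 0.15 to -0.003 with median-ratio scaling and to -0.03 with quantile normalization.

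Deviations from the group mean in samples that share a replicate number correlated at -0.385 to 0.25. With 3 libraries in a group, such values cannot show whether the numbers mark a pairing, and the labels name none. A fit with the replicate number as a block gave 2 higher and 3 lower in BDL against sham, 0 in BDL-SenA against BDL and 2 higher in BDL-SenA against sham, with Col5a2 added to Timp1. Low genes limit precision, since a few fragments set the sham level of Timp1.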
